A study of Mus musculus with 9 samples.

Results

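The core cardiac transcription factors examined here are Gata4, Gata6, Nkx2-5, Tbx5, Tbx20, Hand2, Mef2a, Mef2c, Mef2d and Myocd. They were taken by gene name from a table of 13539 genes measured by RNA-seq in mouse hearts. All 10 were listed in it and passed the minimum for testing, and the set was chosen with earlier results of these data known. Transcriptomes came from hearts of 12-week-old male mice on the C57BL/6JOlaHsd background, in 3 groups of 3 libraries. The treated OMA1 KO group lacks the mitochondrial stress protease OMA1 and was given isoproterenol, a β-adrenergic agonist that drives the heart harder, by minipump at 10 mg/kg/day for 7 days. The treated wild-type group had the normal genotype and received isoproterenol in the same way. The untreated OMA1 KO group carried the same knockout and is labelled non-treated and as control, and whether those mice carried a pump is not stated in the sources used here, so pump and drug cannot be told apart. Hearts of untreated wild-type mice were not analysed here, so no test of whether the knockout changes the response to isoproterenol could be made. The labels do not say how the knockout allele was made, in which cells it acts, or whether a library came from 1 animal, so the p-values measure only the spread between these samples, which may be technical.

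Heart muscle identity rests on a small set of DNA-binding factors that bind next to each other at the same enhancers and promoters. GATA4 and GATA6 are zinc finger proteins, NKX2-5 is a homeodomain protein, TBX5 and TBX20 are T-box proteins, HAND2 is a basic helix-loop-helix protein, and MEF2A, MEF2C and MEF2D are MADS-box proteins. Myocardin, the product of Myocd, does not bind DNA by itself but works as a strong coactivator of SRF, another MADS-box factor, at CArG boxes. These factors build the heart in the embryo, and in the adult heart they keep genes of contraction, calcium handling and conduction active and take part in hypertrophy, where GATA4 and MEF2 act downstream of stress kinases.

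Reads recovered from the deposited values of the listed genes numbered 6933879 to 12187701 per library, and each member had between 122 and 1903 of them in every library. Values are the deposited normalized counts, and log2 differences are limma estimates on log2(value + 1) with their standard error. Transcripts of the mitochondrial genome took 38.2% to 42.5% of the signal in treated OMA1 KO hearts, 36.7% to 37.3% in wild-type hearts under the drug and 33.9% to 34.6% in untreated OMA1 KO hearts. Oma1 stood at 6.24 ± 0.502 in treated OMA1 KO hearts, 19.9 ± 2.16 in treated wild-type hearts and 7.42 ± 1.46 in untreated OMA1 KO hearts (SD, n = 3 each), as the genotype labels say. All 12 cardiomyocyte markers were listed, with a summed level of 50790 to 65580 in the 9 libraries. Replicate 3 of the treated wild-type hearts stood apart, with Nppa, the natriuretic peptide of stressed myocardium, at 842 against 51.8 and 86.0 in the other libraries of its group, and Myh7, the slow myosin heavy chain, at 301 against 64.3 and 57.5.

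Markers of atrial muscle parted the treated from the untreated libraries. Bmp10 had 0 reads in all 6 treated libraries, where 3 reads would be 0.243 to 0.346 normalized counts, and 145 to 355 reads in the 3 untreated ones. Sln had 0 reads in 5 of the 6 treated libraries and 1 read in the other, against 437 to 1113 reads in untreated hearts. Myl7 had 0 to 4 reads in treated hearts against 1063 to 2310, and Myl4 11 to 26 against 1514 to 3760. Without Tbx5, which is itself a marker of atrial muscle, the 12 atrial markers listed summed to 180.9 to 202 in treated OMA1 KO hearts, 159 to 943 in treated wild-type hearts, and in untreated OMA1 KO hearts to 1332 to 2868. The value of 943 belongs to replicate 3, with Nppa as most of it and Bmp10 and Sln at 0. Of 11 such markers tested, 10 were lower in treated OMA1 KO than in untreated OMA1 KO hearts (median log2 difference -3.12), and 10 were lower in treated wild-type than in untreated OMA1 KO hearts (median -2.52). Between the treated groups the median log2 difference of the 11 was 0.0, and the defining markers Bmp10, Sln and Myl7 were at or near 0 in both. The part of atrial tissue in every comparison with the untreated hearts was not tested, and the labels do not describe the dissection in detail. The share of atrium sampled, fewer cells of a type and less RNA per cell cannot be told apart in whole tissue.

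**Figure D1:**
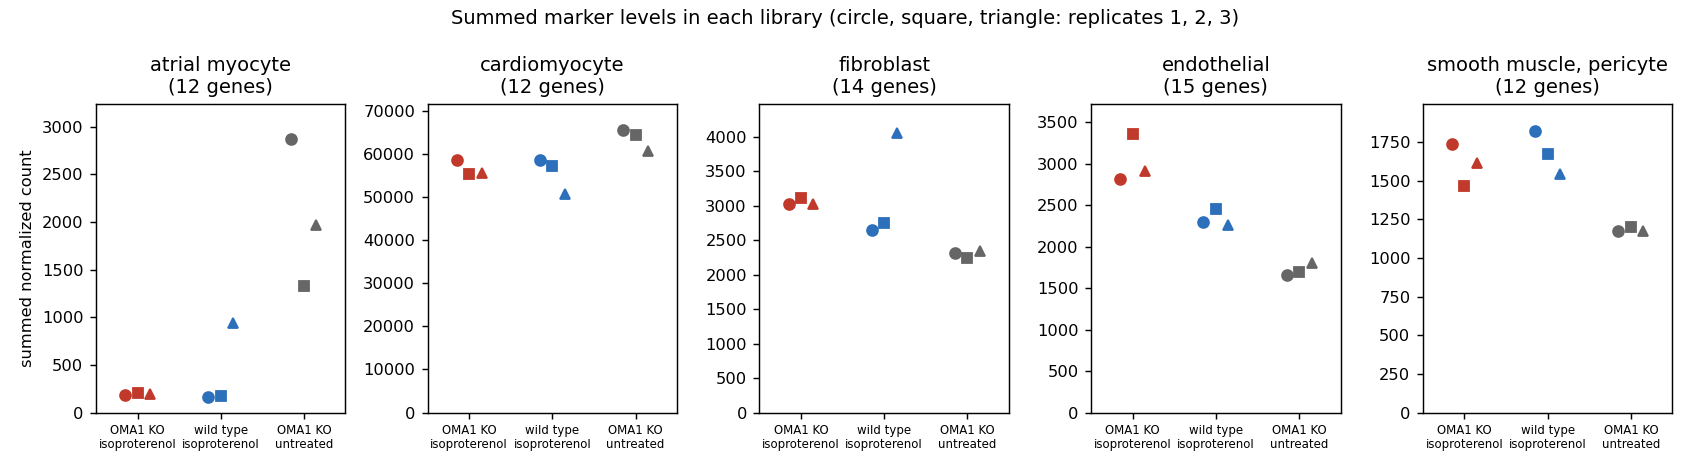
Summed normalized count (vertical axes, linear, from 0) of atrial myocyte, cardiomyocyte, fibroblast, endothelial and smooth muscle and pericyte markers in each library, with groups along the horizontal axis and circle, square and triangle for replicates 1, 2 and 3. Tbx5 is left out of the atrial sum, which reaches 1332 to 2868 in untreated OMA1 KO hearts, and endothelial sums are 2818 to 3365, 2265 to 2457 and 1655 to 1808 from left to right.

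Between genes, levels can be set side by side only per length of transcript. With the longest annotated transcript as length, Mef2a had the highest mean over the 9 libraries, at 28.9 normalized counts per kb (range 22.5 to 33.2), and Tbx5 the lowest, at 5.70 (3.65 to 7.78). In treated OMA1 KO hearts Mef2a (25.3 ± 2.61 per kb), Mef2d (22.2 ± 1.26), Nkx2-5 (21.6 ± 0.719) and Gata4 (18.5 ± 2.24) led the order. Hand2 (14.4 ± 0.879), Tbx20 (11.1 ± 0.900), Gata6 (9.45 ± 0.977), Mef2c (8.61 ± 0.336), Myocd (4.83 ± 0.631) and Tbx5 (4.32 ± 0.637) followed (SD, n = 3 each). Among the treated OMA1 KO libraries the ranges of Mef2a and Mef2d, of Mef2d and Nkx2-5, of Tbx20 and Gata6, of Gata6 and Mef2c, and of Myocd and Tbx5 overlapped, although each of these pairs kept the same order in all 3 libraries. Hand2 was in place 5 of the 10 in treated OMA1 KO hearts, place 6 in treated wild-type hearts and place 9 in untreated OMA1 KO hearts, while Gata4 was in places 4, 2 and 2. The order depends on the length used: with the median coding transcript Tbx20 (61.8 per kb over the 9 libraries) moves from place 5 to place 2 and Mef2c (54.2) from place 8 to place 3, since the median coding transcript of each is much shorter than its longest.

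**Figure D2:**
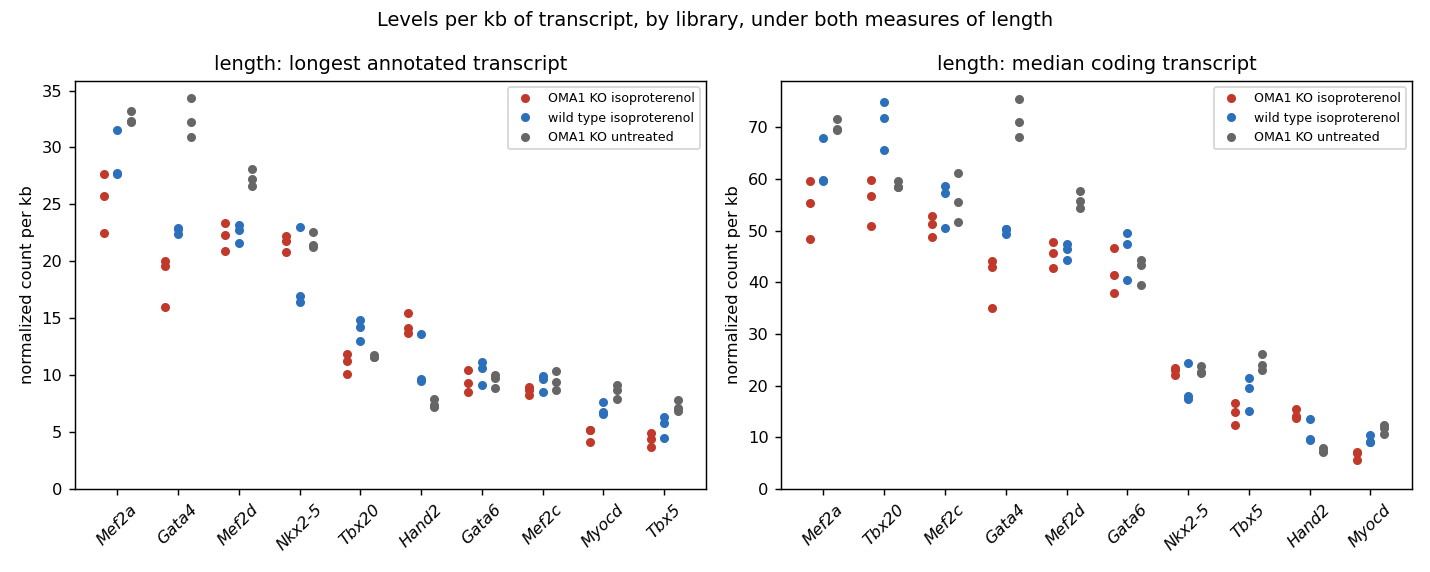
Normalized count per kb (vertical axes, linear, from 0) of each member in each library, with the longest annotated transcript (left) or the median coding transcript (right) as its length, and colours for treated OMA1 KO, treated wild-type and untreated OMA1 KO hearts. Mef2a is highest by mean in both panels, while Tbx20 and Mef2c stand in places 5 and 8 on the left and in places 2 and 3 on the right.

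In treated hearts the knockout was set against wild type to ask which factors differ with genotype under isoproterenol. Myocd, Tbx20 and Gata4 were lower in treated OMA1 KO than in treated wild-type hearts, and Hand2 was higher. The count of 4 of 10 stands beside 27.8% of all genes tested, and nothing particular to the members is read from it. The 3 that fell of 10 stand beside 15.9% of genes called lower, and the 1 that rose beside 12.0% called higher. The groups did not overlap for 5 members (the 4 called and Mef2a), beside 43.6% of all genes. The median log2 difference of the members was -0.16, against -0.01 over all genes. Scaled to nuclear genes alone, which moves all genes called there to 1390 higher and 1065 lower against 1023 and 1356 as deposited, the members still gave 1 higher and 3 lower. The 4 calls were not equally firm: Myocd held under all 27 alternatives, Gata4 under 23, Tbx20 under 25 and Hand2 under 21. Fitting out transcript length and GC content left 2 calls, Myocd (-0.45 ± 0.10, limma adjusted p = 0.00836) and Gata4 (-0.39 ± 0.09, limma adjusted p = 0.0108), and leaving out treated wild-type replicate 2 left 2, Myocd and Tbx20. Endothelial markers moved along with these differences: 12 of 15 were higher in treated OMA1 KO hearts (6 without treated OMA1 KO replicate 2, 7 without treated wild-type replicate 1), with sums of 2818 to 3365 against 2265 to 2457, and their part in the result was not tested. Cardiomyocyte markers summed to 55340 to 58530 against 50790 to 58570, which overlap. Of the 12 tested, 2 were higher in treated OMA1 KO hearts and 2 lower.

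The 2 knockout groups were compared to see how the factors stand after isoproterenol in hearts without OMA1. Gata4, Myocd, Tbx5, Mef2a and Mef2d were lower in treated than in untreated OMA1 KO hearts, and Hand2 was higher. All 6 calls held under every alternative in which the gene was tested, nuclear scaling included, which moves all genes called to 2834 higher and 1669 lower against 2043 and 2345 as deposited. The count of 6 of 10 stands beside 51.4% of all genes called, the 5 that fell beside 27.4% called lower and the 1 that rose beside 23.9% called higher. Groups did not overlap for those same 6 members, beside 62.6% of all genes. The median log2 difference of the members was -0.22, against -0.02 over all genes. Beside these differences atrial markers were lower as given above, while 14 of 15 endothelial, 10 of 12 fibroblast and 9 of 11 smooth muscle and pericyte markers were higher in treated hearts, as were 5 of 8 macrophage markers, and 4 of 12 cardiomyocyte markers were lower. The macrophage count was 2 without treated OMA1 KO replicate 2, 3 without untreated replicate 1 or 2 and 8 without untreated replicate 3. The fibroblast count was 6 without untreated replicate 2, and the cardiomyocyte count was 2 without that library or without treated OMA1 KO replicate 3. With nuclear scaling the cardiomyocyte split was 1 higher and 2 lower. As deposited, cardiomyocyte sums were 55340 to 58530 in treated against 60760 to 65580 in untreated OMA1 KO hearts, which do not overlap. The part of these cell types was not tested.

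Treated wild-type hearts and untreated OMA1 KO hearts differ in genotype and in treatment together, and each shares its libraries with another comparison above. Gata4, Mef2d, Tbx5 and Myocd were lower in treated wild-type hearts and Hand2 and Tbx20 higher, 6 of 10 beside 33.2% of all genes called, with 4 beside 16.9% called lower and 2 beside 16.4% called higher. Groups did not overlap for 7 members, beside 47.4% of all genes. The calls on Gata4, Hand2 and Mef2d held under all 27 alternatives, Tbx20 under 21 and Tbx5 under 22 of 26, while the call on Myocd held under 15 of 27. The count was 3 without treated wild-type replicate 3 and 3 without untreated OMA1 KO replicate 2. It was 4 without untreated OMA1 KO replicate 1. Nuclear scaling left 2 higher and 3 lower, Myocd dropping out, beside 1806 genes higher and 1113 lower against 1399 and 1440 as deposited. Beside these differences 8 of 15 endothelial and 5 of 11 smooth muscle and pericyte markers were higher in treated wild-type hearts, 10 of 12 fibroblast markers were higher and 2 lower, 3 of 8 macrophage markers were higher, and atrial markers were lower as given above. Of 12 cardiomyocyte markers 4 were lower and 1 higher (2 lower without untreated OMA1 KO replicate 1 or 2), with sums of 50790 to 58570 against 60760 to 65580, which do not overlap. The part of these cell types was not tested.

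**Figure D3:**
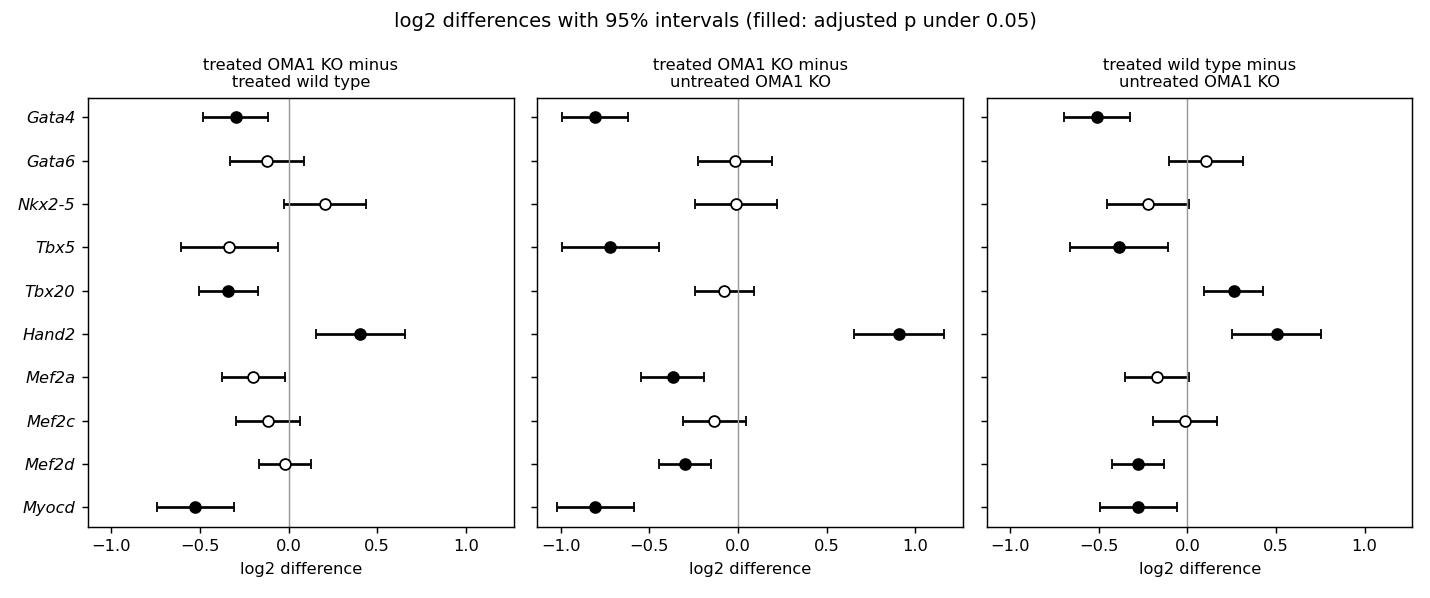
The log2 difference of each member (horizontal axes) with its 95% interval from limma, for treated OMA1 KO minus treated wild-type, treated OMA1 KO minus untreated OMA1 KO, and treated wild-type minus untreated OMA1 KO hearts, with filled points where the adjusted p is under 0.05. Hand2 lies right of 0 and Gata4 and Myocd left of 0 with filled points in all 3 panels. Gata6, Mef2c and Nkx2-5 are open in all 3.

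Gata4 (ENSMUSG00000021944, chromosome 14, 63198922 to 63271692, minus strand, GRCm38) encodes the zinc finger factor that partners most of the others and is phosphorylated downstream of adrenergic stimulation. Its normalized counts were 68.1, 54.2 and 66.5 in treated OMA1 KO hearts, 77.9, 77.7 and 76.2 in treated wild-type hearts and 105, 109.7 and 117 in untreated OMA1 KO hearts. The 3 groups did not overlap, and treated OMA1 KO replicate 2 was the lowest library of all. Means were 62.9 ± 7.61, 77.3 ± 0.906 and 110.5 ± 5.74 (SD, n = 3 each). Against treated wild-type hearts the treated OMA1 KO level was lower by a log2 difference of -0.30 ± 0.09 (limma adjusted p = 0.0217), or 0.813 times. That call rests on few libraries: with treated OMA1 KO replicate 2 left out it was -0.20 (limma adjusted p = 0.0714), and with replicate 1 or 2 of the treated wild-type hearts left out it was -0.29 each time (limma adjusted p = 0.0557 and 0.0570). Against untreated OMA1 KO hearts the difference was -0.81 ± 0.09 (limma adjusted p = 9.11e-06), or 0.571 times, further down than in 96.9% of the genes tested. Treated wild-type hearts were lower than untreated OMA1 KO hearts by -0.51 ± 0.09 (limma adjusted p = 0.000673).

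Gata6 (ENSMUSG00000005836, chromosome 18), the second GATA factor of adult heart muscle, had 35.3, 32.3 and 39.7 normalized counts in treated OMA1 KO hearts, 42.2, 40.35 and 34.4 in treated wild-type hearts and 37.8, 36.9 and 33.6 in untreated OMA1 KO hearts. The 3 groups overlapped throughout. The log2 difference between treated OMA1 KO and treated wild-type hearts was -0.12 ± 0.10 (limma adjusted p = 0.369, 95% interval -0.33 to 0.09). Between treated and untreated OMA1 KO hearts it was -0.02 ± 0.10 (limma adjusted p = 0.902, interval -0.22 to 0.19), so a difference of the size seen for Gata4 lies outside the interval. Between treated wild-type and untreated OMA1 KO hearts it was 0.10 ± 0.10 (limma adjusted p = 0.434). Within each library, Gata4 was 1.93, 1.68 and 1.68 times Gata6 in treated OMA1 KO hearts, 1.85, 1.93 and 2.21 times in treated wild-type hearts and 2.78, 2.97 and 3.47 times in untreated OMA1 KO hearts. This pair was chosen after its values were seen. The ratio does not depend on library scaling, it was lower in each treated library than in any untreated one, and it overlapped between the treated groups. Exons of Gata6 share 93 bases with 1010001N08Rik on the opposite strand, which had 3.23 to 5.78 normalized counts, and whether reads were counted by strand is not given in the sources used here.

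Tbx5 (ENSMUSG00000018263, chromosome 5, 119832668 to 119885219, plus strand), the T-box activator that works with NKX2-5 and GATA4 and is richest in atria and the conduction system, had 19.4, 14.4 and 17.4 normalized counts in treated OMA1 KO hearts. It had 25.0, 22.8 and 17.6 in treated wild-type hearts and 30.7, 28.0 and 26.9 in untreated OMA1 KO hearts. Both treated groups lay below the untreated one, and they overlapped each other through treated wild-type replicate 3. The difference between treated and untreated OMA1 KO hearts was -0.72 ± 0.13 (limma adjusted p = 0.000443), or 0.607 times. Among the untreated libraries, replicate 1 had 30.7 of Tbx5 with an atrial marker sum of 2868, replicate 2 had 28.0 with a sum of 1332, and replicate 3 had 26.9 with a sum of 1970. The 6 conduction markers listed summed to 44.8 to 49.2 in treated OMA1 KO hearts, 41.7 to 52.5 in wild-type hearts under the drug and 61.0 to 69.8 in untreated OMA1 KO hearts, and their part in the lower Tbx5 was not tested. Between the treated groups the difference was -0.33 ± 0.13 (limma adjusted p = 0.0658), which does not pass. With replicate 3 of the treated wild-type hearts left out it passed (-0.47, limma adjusted p = 0.00973), as it did with treated OMA1 KO replicate 1 left out (-0.43, limma adjusted p = 0.0406). Treated wild-type hearts were lower than untreated OMA1 KO hearts by -0.39 ± 0.13 (limma adjusted p = 0.0330), a call that did not survive leaving out replicate 3 of the treated wild-type hearts (-0.24, limma adjusted p = 0.138). Leaving out untreated OMA1 KO replicate 1 (-0.33, limma adjusted p = 0.116) or 2 (-0.40, limma adjusted p = 0.0758) also ended it.

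Tbx20 (ENSMUSG00000031965, chromosome 9, 24718138 to 24774303, minus strand) is a T-box factor that both activates and represses and is needed for adult heart function. Knockout against wild type under the drug gave it a log2 difference of -0.34, beside -0.33 for Tbx5. Only against untreated OMA1 KO hearts did its differences part from those of Tbx5. It was not tested against Tbx5. Its normalized counts were 102, 91.6 and 108 in treated OMA1 KO hearts, 129, 118 and 135 in treated wild-type hearts and 107, 105 and 105 in untreated OMA1 KO hearts. Treated wild-type hearts were the high group, above every library of both knockout groups, while the knockout groups overlapped. Means were 100.5 ± 8.18, 127 ± 8.41 and 106 ± 1.254 (SD, n = 3 each). The difference between treated OMA1 KO and treated wild-type hearts was -0.34 ± 0.08 (limma adjusted p = 0.00714), or 0.79 times, and it missed the threshold once length and GC content were fitted out (-0.14 ± 0.06, limma adjusted p = 0.133). At 9091 bases its longest transcript is the longest among the members. Between treated and untreated OMA1 KO hearts the difference was -0.08 ± 0.08 (limma adjusted p = 0.414, 95% interval -0.24 to 0.09). Treated wild-type hearts were higher than untreated OMA1 KO hearts by 0.26 ± 0.08 (limma adjusted p = 0.0187). That call did not pass with the length and GC correction (0.14, limma adjusted p = 0.105). Leaving out replicate 3 of the treated wild-type hearts (0.22, limma adjusted p = 0.0576) or untreated OMA1 KO replicate 2 (limma adjusted p = 0.0643) or 3 (limma adjusted p = 0.0544) ended it as well. The ratio of Tbx20 to Tbx5, also chosen after its values were seen, was 5.27, 6.37 and 6.21 in treated OMA1 KO hearts, 5.16, 5.18 and 7.67 in treated wild-type hearts and 3.5, 3.75 and 3.91 in untreated OMA1 KO hearts.

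Hand2 (ENSMUSG00000038193, chromosome 8, 57320983 to 57324633, plus strand) encodes a basic helix-loop-helix factor of the embryonic right ventricle that is also made in fibroblasts and endocardium. Its promoter and those of Mef2a and Mef2d are shown because Hand2 was the only member called higher in treated OMA1 KO hearts in either comparison, while Mef2a and Mef2d were both lower than in the untreated group. They run from 250 bases before to 50 after the start of the gene, are from RefSeq on GRCm38.p6, and are printed 5′ to 3′ on the strand of the gene, with capitals for the motifs searched.
Hand2 (chr8:57320733-57321032, plus strand): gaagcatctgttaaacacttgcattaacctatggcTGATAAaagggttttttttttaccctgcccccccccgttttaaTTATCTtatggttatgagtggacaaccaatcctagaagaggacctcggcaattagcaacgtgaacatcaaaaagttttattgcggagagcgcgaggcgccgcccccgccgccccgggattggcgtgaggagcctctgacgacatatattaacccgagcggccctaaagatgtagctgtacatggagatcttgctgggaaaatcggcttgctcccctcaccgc
Mef2a (chr7:67372809-67373108, minus strand): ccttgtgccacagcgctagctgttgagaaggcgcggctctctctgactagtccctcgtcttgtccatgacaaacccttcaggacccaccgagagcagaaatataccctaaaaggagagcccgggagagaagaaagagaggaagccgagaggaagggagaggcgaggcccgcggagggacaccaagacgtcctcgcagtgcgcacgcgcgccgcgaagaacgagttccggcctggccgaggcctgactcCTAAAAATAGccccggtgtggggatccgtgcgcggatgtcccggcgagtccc
Mef2d (chr3:88142122-88142421, plus strand): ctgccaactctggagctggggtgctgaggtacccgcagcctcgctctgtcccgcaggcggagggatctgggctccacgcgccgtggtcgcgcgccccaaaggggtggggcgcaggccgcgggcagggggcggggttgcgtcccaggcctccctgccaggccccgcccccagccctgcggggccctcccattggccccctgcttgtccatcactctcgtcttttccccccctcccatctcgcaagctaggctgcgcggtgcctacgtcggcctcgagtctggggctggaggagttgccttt
The motifs searched on both strands were the GATA site (AGATAA or AGATAG or TGATAA or TGATAG), the NK site TNAAGTG, the T-box motif AGGTGT, the TATA box TATAAA, the MEF2 box and the CArG box. The Hand2 promoter holds 2 GATA sites, at -215 and -172 from the start, and 29.8% of 32851 RefSeq mouse promoters of the same length hold at least 1. The Mef2a promoter holds a MEF2 box at -2, as do 0.557% of the promoters, and the Mef2d promoter holds none of these motifs in this window. Among the other members' promoters in the table, those of Tbx20 and Nkx2-5 hold none, and the 3 listed for Mef2c hold AGGTGT in 1 and TATAAA in 2, which 13.7% and 13.6% of all promoters hold. GC content was 50.3% for Hand2, 62.3% for Mef2a and 72.0% for Mef2d, against a median of 52.7%.

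Hand2 had 36.3, 32.3 and 33.3 normalized counts in treated OMA1 KO hearts, 32.0, 22.7 and 22.4 in treated wild-type hearts and 17.4, 18.6 and 16.9 in untreated OMA1 KO hearts. The 3 groups did not overlap, although treated wild-type replicate 1, at 32.0, came close to the lowest treated OMA1 KO library, at 32.3. Means were 33.95 ± 2.07, 25.7 ± 5.46 and 17.6 ± 0.877 (SD, n = 3 each). Treated OMA1 KO hearts were higher than untreated ones by 0.91 ± 0.12 (limma adjusted p = 3.78e-05), or 1.88 times, a difference above that of 97.0% of the genes tested. Treated wild-type hearts were higher than untreated OMA1 KO hearts by 0.50 ± 0.12 (limma adjusted p = 0.00531). Between treated OMA1 KO and treated wild-type hearts the difference was 0.41 ± 0.12 (limma adjusted p = 0.0217). With length and GC content fitted out that last difference was 0.23 ± 0.12 and did not pass (limma adjusted p = 0.164). Nor did it pass with treated OMA1 KO replicate 1 left out (0.36, limma adjusted p = 0.0697), or with replicate 2 (0.33, limma adjusted p = 0.0864) or 3 (0.32, limma adjusted p = 0.0623) of the treated wild-type hearts left out. Within each library Hand2 was 0.533, 0.596 and 0.5 times Gata4 in treated OMA1 KO hearts, 0.411, 0.292 and 0.294 times in treated wild-type hearts and 0.165, 0.169 and 0.145 times in untreated OMA1 KO hearts, a pair chosen after its values were seen. Fibroblast markers, which share a cell type with Hand2, summed to 3028 to 3109, 2644 to 4057 and 2236 to 2340 in those groups. The value of 4057 belongs to treated wild-type replicate 3, against 2644 and 2750 in the other libraries of its group. Of these markers 4 of 12 were higher and 0 lower in treated OMA1 KO than in treated wild-type hearts, and their part was not tested. The 5 endocardial markers listed summed to 144 to 191, 126 to 141 and 160 to 169, and 2 of them were higher between the treated groups while 3 were lower and 1 higher in treated than in untreated OMA1 KO hearts; their part was not tested either. Exons of Hand2 share 461 of its 2351 bases with the opposite-strand gene Hand2os1, which was not analysed here.

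Nkx2-5 (ENSMUSG00000015579, chromosome 17, 26838664 to 26845009, minus strand), the homeodomain factor that marks heart muscle from its first cells, had 33.2, 31.7 and 33.8 normalized counts in treated OMA1 KO hearts, 35.1, 25.0 and 25.85 in treated wild-type hearts and 32.4, 32.7 and 34.4 in untreated OMA1 KO hearts. Treated wild-type replicate 1 was the highest of the 9 libraries and the other 2 of its group were the lowest. Between treated OMA1 KO and treated wild-type hearts the difference was 0.21 ± 0.11 (limma adjusted p = 0.162). With replicate 1 of the treated wild-type hearts left out it passed (0.36, limma adjusted p = 0.0128), and with length and GC content fitted out it turned to -0.21 (limma adjusted p = 0.109). At 1525 bases and 67.1% GC its transcript is the shortest and most GC-rich of the members. Between treated and untreated OMA1 KO hearts it was -0.01 ± 0.11 (limma adjusted p = 0.935, 95% interval -0.24 to 0.22). Between treated wild-type and untreated OMA1 KO hearts it was -0.22 ± 0.11 (limma adjusted p = 0.135), and -0.37 with replicate 1 of the treated wild-type hearts left out (limma adjusted p = 0.00514).

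The MEF2 genes, whose proteins are held silent by class IIa histone deacetylases until stress kinases release them, had different calls, and whether they differ from each other was not tested. Mef2a (ENSMUSG00000030557, chromosome 7, 67231163 to 67372858, minus strand) had 142, 125 and 153 normalized counts in treated OMA1 KO hearts, 174.5, 154 and 153 in treated wild-type hearts and 178, 179 and 184 in untreated OMA1 KO hearts. Each treated group lay below every untreated library, and the treated OMA1 KO libraries lay below every treated wild-type library by a narrow margin. Treated OMA1 KO hearts were lower than untreated ones by -0.37 ± 0.08 (limma adjusted p = 0.00242), or 0.774 times. Against treated wild-type hearts the difference of -0.20 ± 0.08 did not pass (limma adjusted p = 0.0910), except without treated OMA1 KO replicate 3 (-0.26, limma adjusted p = 0.0449). For treated wild-type against untreated OMA1 KO hearts it was -0.17 ± 0.08 (limma adjusted p = 0.134), which passed after the length and GC correction (-0.28, limma adjusted p = 0.01003). Exons of Mef2a share 302 bases with Lysmd4 on the opposite strand, at 11.5 to 18.5 normalized counts.

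Mef2d (ENSMUSG00000001419, chromosome 3, 88142372 to 88172086, plus strand), the form that drives stress-dependent remodelling in adult mouse hearts, had 126, 113 and 121 normalized counts in treated OMA1 KO hearts, 122.7, 125 and 117 in treated wild-type hearts and 147, 152 and 144 in untreated OMA1 KO hearts. The treated groups overlapped and both lay below the untreated one. Treated OMA1 KO hearts were lower than untreated ones by -0.30 ± 0.07 (limma adjusted p = 0.00266), and treated wild-type hearts were lower than untreated OMA1 KO hearts by -0.28 ± 0.07 (limma adjusted p = 0.00736). Between the treated groups the difference was -0.02 ± 0.07 (limma adjusted p = 0.844), with a 95% interval of -0.17 to 0.13. Its antisense neighbour 1700113A16Rik shares 531 exon bases with it and had 1.73 to 7.30 normalized counts.

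Mef2c (ENSMUSG00000005583, chromosome 13, 83504034 to 83667080, plus strand), the form needed for the embryonic right ventricle and also made in endothelium, had 54.4, 51.8 and 56.0 normalized counts in treated OMA1 KO hearts, 60.8, 53.5 and 62.1 in treated wild-type hearts and 64.9, 58.8 and 54.7 in untreated OMA1 KO hearts. All 3 groups overlapped, and no comparison passed under any of the 27 alternatives. Log2 differences were -0.12 ± 0.08 for treated OMA1 KO against treated wild-type hearts (limma adjusted p = 0.314, 95% interval -0.30 to 0.06) and -0.13 ± 0.08 for treated against untreated OMA1 KO hearts (limma adjusted p = 0.202, interval -0.31 to 0.05). For treated wild-type against untreated OMA1 KO hearts the difference was -0.02 ± 0.08 (limma adjusted p = 0.902). A p that misses the threshold does not show that the levels were alike, but a fall from the untreated level of the size seen for Gata4 lies outside the second interval. Within each library Mef2a was 2.62, 2.40 and 2.74 times Mef2c in treated OMA1 KO hearts, 2.87, 2.87 and 2.47 times in treated wild-type hearts and 2.75, 3.04 and 3.36 times in untreated OMA1 KO hearts. Mef2d was 2.32, 2.175 and 2.155 times Mef2c in treated OMA1 KO hearts, 2.02, 2.34 and 1.88 times in treated wild-type hearts and 2.27, 2.59 and 2.63 times in untreated OMA1 KO hearts. The ratio of Mef2d to Mef2c overlapped between all 3 groups, and that of Mef2a to Mef2c separated only the knockout groups from each other; these pairs too were chosen after their values were seen.

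Myocd (ENSMUSG00000020542, chromosome 11, 65176561 to 65269989, minus strand), which codes for the SRF coactivator myocardin of heart and smooth muscle, had 26.6, 20.95 and 26.4 normalized counts in treated OMA1 KO hearts, 39.25, 33.9 and 34.4 in treated wild-type hearts and 44.3, 46.5 and 40.2 in untreated OMA1 KO hearts. The 3 groups did not overlap, with treated OMA1 KO hearts lowest and untreated OMA1 KO hearts highest. Means were 24.7 ± 3.23, 35.85 ± 2.95 and 43.7 ± 3.19 (SD, n = 3 each). Against treated wild-type hearts the difference was -0.53 ± 0.10 (limma adjusted p = 0.00304), or 0.694 times, lower than in 97.0% of the genes tested, and over the alternatives it ran from -0.58 to -0.41. Against untreated OMA1 KO hearts it was -0.80 ± 0.10 (limma adjusted p = 3.16e-05), or 0.573 times. For treated wild-type against untreated OMA1 KO hearts it was -0.28 ± 0.10 (limma adjusted p = 0.0484), a call at the edge of the threshold. It did not pass with replicate 2 or 3 of the treated wild-type hearts left out (limma adjusted p = 0.141 and 0.114), with untreated OMA1 KO replicate 1 or 2 left out (limma adjusted p = 0.121 and 0.169), or with treated OMA1 KO replicate 1 or 3 left out (limma adjusted p = 0.0520 and 0.0540). Smooth muscle and pericyte markers, which share a cell type with Myocd, summed to 1464 to 1737, 1547 to 1819 and 1177 to 1202 in the 3 groups, and their part was not tested.

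**Figure D4:**
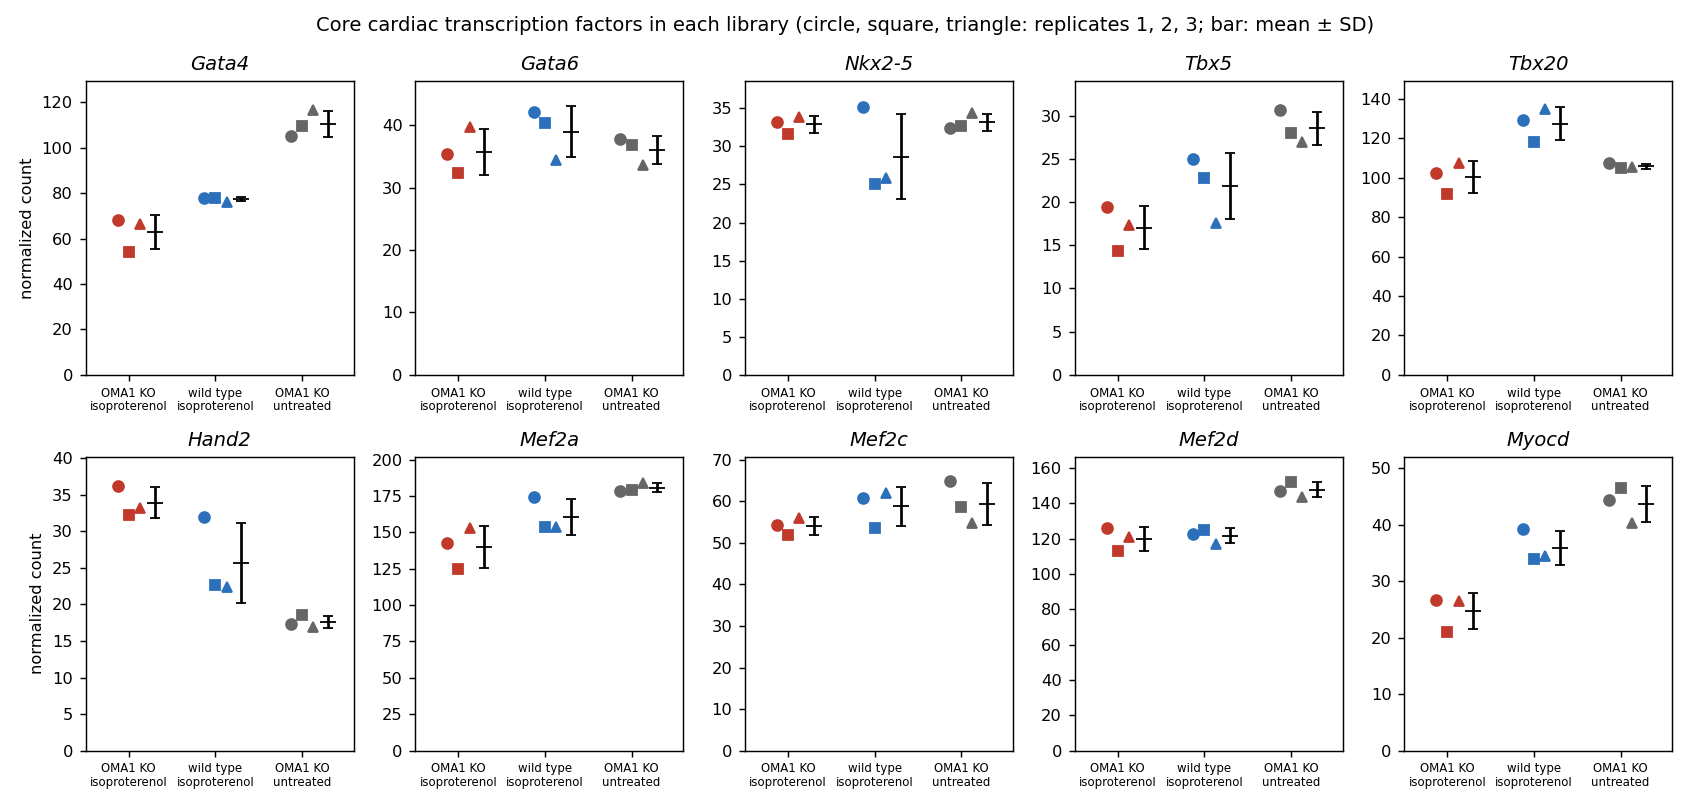
Normalized count of each member (vertical axes, linear, from 0) in treated OMA1 KO, treated wild-type and untreated OMA1 KO hearts, with circle, square and triangle for replicates 1, 2 and 3 and a black bar for mean ± SD. Gata4, Hand2, Myocd and, by a narrow margin, Mef2a separate all 3 groups, and Tbx20 is highest in treated wild-type hearts (118 to 135). The square is the lowest treated OMA1 KO point for every member.

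Treated OMA1 KO replicate 2 was the lowest library of its group for 10 of 10 members, and stayed so after scaling to nuclear genes alone. Over all tested genes it was lowest in 45.3%, and 39.4% after that scaling. The same library had the highest share of mitochondrial transcripts (42.5%), the highest endothelial sum (3365) and an erythroid marker sum of 3530 against 738 and 998 in its group, and the part of these in its low values was not tested. In treated wild-type hearts replicate 1 was highest for 7 of 10 members, against 34.9% of all tested genes. Summed over the 10 members the level was 644, 566.5 and 654.5 in treated OMA1 KO hearts, 739, 673 and 678 in treated wild-type hearts and 766, 767 and 756 in untreated OMA1 KO hearts, and these ranges did not overlap. The sum is not scaled to transcript length, so members with high counts, Mef2a first, weigh most in it, and Hand2 ran the other way. As a share of the nuclear signal the sum was 0.107%, 0.0966% and 0.11% in treated OMA1 KO hearts, 0.118%, 0.108% and 0.113% in treated wild-type hearts and 0.119% in each untreated OMA1 KO library, so on that scale the treated groups overlapped.

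Differences between the treated groups ran with transcript length. In 5 bins of about equal gene number, from the shortest to the longest transcripts, the median log2 difference of treated OMA1 KO minus treated wild-type hearts was 0.14, 0.00, -0.04, -0.06 and -0.12. Nkx2-5 (1525 bases) and Hand2 (2351 bases), the 2 members with positive differences, lie in bins 1 and 2, and Tbx20 (9091 bases) lies in bin 5. The median longest transcript was 4528 bases for the members and 3656 for all tested genes. Gata4 (3400 bases) lies in bin 3, where its -0.30 stands beside a median of -0.04, and Myocd (5114 bases) in bin 4, where its -0.53 stands beside -0.06.

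**Figure D5:**
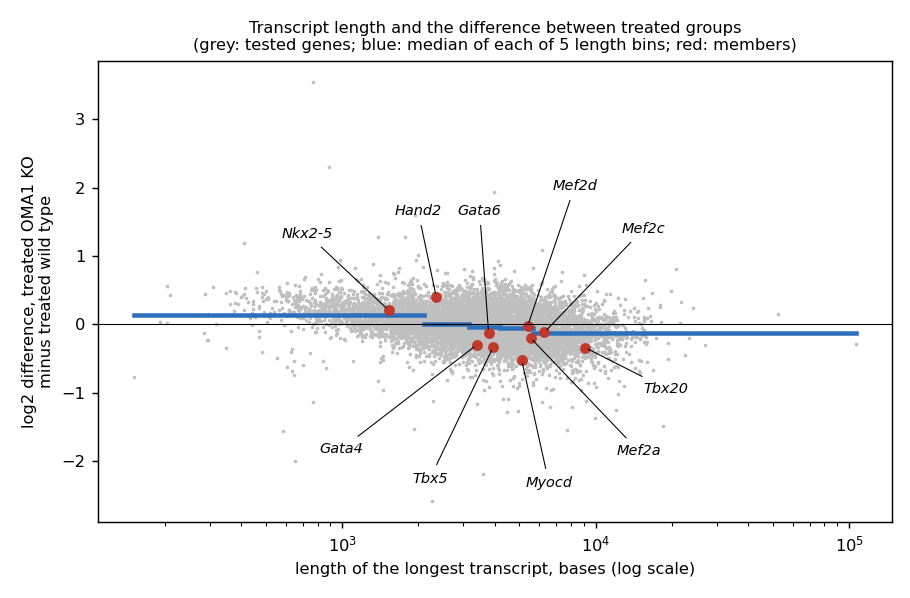
Log2 difference of treated OMA1 KO minus treated wild-type hearts (vertical axis) against the length of the longest annotated transcript in bases (horizontal axis, log scale) for each tested gene with a length (grey), the median of each of the 5 length bins (blue lines, from 0.14 to -0.12) and the 10 members (red). Myocd lies furthest below the median of its bin, and Hand2 furthest above.

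The wider cardiac transcription factors, a list of 40 genes of which 32 were in the table and 23 tested, had 2 higher and 5 lower in treated OMA1 KO than in treated wild-type hearts, with a median of 0.03. Higher calls fell to 0 without treated wild-type replicate 2 and to 1 without treated OMA1 KO replicate 2 or 3, and with length and GC content fitted out the split was 6 and 6. More genes were called lower than higher although the median is above 0. Over all genes tested, 12.0% were called higher between the treated groups and 15.9% lower. Tead1, the TEA domain factor of muscle genes, had 46.5, 34.0 and 53.2 normalized counts in treated OMA1 KO hearts and 116, 105 and 124 in treated wild-type hearts, with no overlap. Its log2 difference of -1.37 ± 0.12 (limma adjusted p = 4.27e-05) is larger than that of any member. Esrrg, a nuclear receptor of oxidative metabolism, differed by -0.76 ± 0.09, Sox6 by -0.60 ± 0.13 and Prox1, a homeobox factor of sarcomere genes, by -0.60 ± 0.11. Against untreated OMA1 KO hearts 5 of the 23 were higher and 12 lower (median -0.35), beside 23.9% and 27.4% of all genes. Tead1 (-1.48 ± 0.12), Prox1 (-0.88 ± 0.11) and Esrrg (-0.81 ± 0.09) were lower, and the Notch effector Hey1 was higher (1.22 ± 0.12). In treated wild-type against untreated OMA1 KO hearts 3 were higher and 7 lower (median -0.19), or 5 and 5 with nuclear scaling. As deposited, 16.4% of all genes were called higher there and 16.9% lower. Hopx, an atypical homeodomain cofactor of SRF, differed by -0.80 ± 0.13, Irx3, an Iroquois factor of fast conduction, by -0.75 ± 0.10, Klf15, a repressor of hypertrophic genes, by -0.75 ± 0.12, and Hey1 by 0.77 ± 0.12.

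Cofactors and modulators of GATA4, MEF2 and myocardin numbered 55 names, 52 in the table and 49 tested. Of these, 5 were higher and 11 lower in treated OMA1 KO than in treated wild-type hearts (median -0.01), beside 12.0% and 15.9% of all genes. The count of higher genes was 1 without treated OMA1 KO replicate 2 or treated wild-type replicate 2, and 3 without treated OMA1 KO replicate 1. Hdac7, a class IIa deacetylase that binds MEF2, was higher (72.05 ± 6.91 against 49.5 ± 2.53, SD, n = 3 each, log2 difference 0.53 ± 0.08). Smyd1, a muscle histone methyltransferase, was lower (308 ± 18.5 against 431 ± 33.7, -0.48 ± 0.08), as were Kat2b, an acetyltransferase (-0.52 ± 0.10), and Gsk3b, a kinase that restrains GATA4 (-0.46 ± 0.08). In treated against untreated OMA1 KO hearts 6 were higher and 19 lower (median -0.17), beside 23.9% and 27.4% of all genes. The 4 with the smallest p all fell: Hdac9, another class IIa deacetylase (-0.78 ± 0.09), Camk2d, a calcium-dependent kinase that releases class IIa deacetylases from MEF2 (-0.68 ± 0.08), Ncoa2, a coactivator (-0.55 ± 0.08), and Mapk14, a stress-activated kinase that phosphorylates MEF2 (-0.53 ± 0.07). In treated wild-type against untreated OMA1 KO hearts 2 were higher and 13 lower (median -0.12), with 7 lower without treated wild-type replicate 2 and 8 without untreated OMA1 KO replicate 2. With all libraries, 16.4% of all genes were called higher there and 16.9% lower, and nothing particular to the cofactors is read from the counts. Nfatc2, a calcineurin-dependent factor, differed by -0.64 ± 0.10, Mapk14 by -0.54 ± 0.07, Hdac5, a class IIa deacetylase, by -0.52 ± 0.08 and Wwtr1, the Hippo pathway coactivator TAZ, by 0.47 ± 0.08.

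Cardiac muscle target genes, 47 listed and 46 tested, were mostly lower where they passed. In treated OMA1 KO against treated wild-type hearts 2 were higher and 16 lower (median -0.22, against -0.01 over all genes), and 1 and 17 with length and GC content fitted out. Slc8a1, the sodium-calcium exchanger, had 55.1, 37.6 and 54.4 normalized counts in treated OMA1 KO hearts and 141, 138 and 133 in treated wild-type hearts (-1.49 ± 0.12, limma adjusted p = 2.45e-05). Chrm2, the muscarinic receptor, differed by -0.85 ± 0.10 and Ryr2, the calcium release channel, by -0.66 ± 0.08. With cyclic loess scaling the split was 6 higher and 16 lower, and with nuclear scaling 4 and 15. In treated against untreated OMA1 KO hearts 1 was higher and 27 lower (median -0.38), or 8 and 25 with cyclic loess scaling and 4 and 22 with nuclear scaling. The higher count was 0 without untreated OMA1 KO replicate 3. Of these, Myl7 and Myl4 are the atrial light chains at or near 0 in treated hearts, while Chrm2 (-1.34 ± 0.10) and Myom2, an M-band protein (-1.50 ± 0.13), were at 59.6 ± 7.83 and 343 ± 74.2 in treated OMA1 KO hearts against 152 ± 8.43 and 958 ± 66.7 in untreated ones (SD, n = 3 each). In treated wild-type against untreated OMA1 KO hearts 4 were higher and 16 lower (median -0.14), or 9 and 17 with cyclic loess scaling, with 10 lower without untreated OMA1 KO replicate 1 and 9 without replicate 2. Myom2 (-1.27 ± 0.13) and Lrrc10, a cardiac cytoskeletal protein (-0.77 ± 0.10), had the smallest p after Myl7 and Myl4. Over all genes tested, 12.0% were called higher and 15.9% lower between the treated groups, and 23.9% and 27.4% between the knockout groups. For treated wild-type against untreated OMA1 KO hearts these shares were 16.4% and 16.9%.

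Smooth muscle genes driven by SRF and myocardin numbered 20, with 18 in the table and 14 tested. In treated OMA1 KO against treated wild-type hearts 1 was higher and 6 lower (median -0.08). Those with the smallest p are membrane and actin linkers that heart muscle also makes: Sgcd, a sarcoglycan (-1.28 ± 0.13), Synpo2 (-0.48 ± 0.09), Pgm5 (-0.47 ± 0.09) and Vcl, vinculin (-0.40 ± 0.07). In treated against untreated OMA1 KO hearts 9 were higher and 4 lower (median 0.36), or 5 and 4 without untreated replicate 2. Acta2, smooth muscle actin (0.85 ± 0.12), and Cald1, caldesmon (0.94 ± 0.08), were higher, while Sgcd (-1.41 ± 0.13) and Pgm5 (-0.76 ± 0.09) were lower, as Myocd was. In treated wild-type against untreated OMA1 KO hearts 5 were higher and 1 lower (median 0.16), led by Cald1 (0.90 ± 0.08), Acta2 (1.22 ± 0.12), Fhl1 (1.10 ± 0.14) and Cspg4 (0.56 ± 0.11). In the same comparison 5 of 11 smooth muscle and pericyte markers were higher, as given above. Acta2 and Cspg4 are in both lists, so the 2 lists are not independent. Over all genes tested, 12.0% were called higher and 15.9% lower between the treated groups, and 23.9% and 27.4% between the knockout groups. For treated wild-type against untreated OMA1 KO hearts these shares were 16.4% and 16.9%.

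Log2 values were correlated over the 9 libraries, leaving out genes with predicted-model or clone names and genes of the mitochondrial genome. Among the rest, the genes most like each member were Dnajb9 and Adipor2 for Gata4 (Pearson r 0.993 and 0.992), Kif16b and Prox1 for Myocd (0.996 and 0.993), Cds2 for Mef2a (0.994), and Dhrs7c and Tmem66 for Mef2d (0.991 and 0.988). They were Pabpc4 and Afg3l1 for Tbx5 (0.988 and 0.984), Ckap5 and Igf2r for Tbx20 (0.979 and 0.976), and Colec11 and Sec14l1 for Hand2 (0.965 and 0.963). For the members with small differences between groups the nearest genes were less close: Arhgap12 and Tppp for Gata6 (0.952 and 0.925), Chm and Tm7sf3 for Mef2c (0.946 and 0.905), and Ino80d and Nr2f6 for Nkx2-5 (0.911 and 0.91). No member was among the 2 nearest genes of another. These values describe 9 points that share libraries and fall into 3 groups, and they carry no test.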

How the data were processed

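RNA from hearts was sequenced from TruSeq libraries, per the labels' protocols, and the labels do not describe the dissection in detail. The deposited signal is a normalized expected count per gene and library; per the submitters' processing notes the authors used cutadapt, RSEM 1.17 and limma on GRCm38, and neither aligner nor settings are given in these sources. Dividing by 1 step per library, its smallest positive value taken as 1 read, turned the values back into reads (100% of the lower values whole within 0.02 reads). Higher values, those of Mef2a and Mef2d among them, were rounded to whole reads without that check. Values were taken as log2(value + 1), so fold changes of low genes are understated. The 8543 genes with at least 10 in at least 3 of the 9 libraries were tested with limma 3.58.1 (R 4.3.3), with 3 group means, a shared spread and a mean-variance trend, two-sided, with Benjamini-Hochberg adjustment over all of them and a threshold of 0.05. Annotation was GENCODE M21 on GRCm38 (13392 IDs matched). The RefSeq promoter table used here gave promoters for 6 of the 10 members.

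Named are the 10 members, the 4 genes of each other list with the smallest p, the 2 nearest genes of each member, Oma1, Nppa and Myh7; defining markers and overlapping genes are named for their values beside a result. Some genes that the rule picks are not reported here. Members and lists were chosen with earlier results of these data known. Alternatives were other pseudocounts, filters, scalings and limma forms, the replicate block, a length and GC correction (splines, 5 degrees of freedom), each library left out, and edgeR 4.0.16, DESeq2 1.42.0 and voom on the recovered whole reads.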

Additional observations from a re-analysis of the deposited data

How the results depend on the processing

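Over 27 alternatives, the 6 member calls in treated against untreated OMA1 KO hearts kept direction and threshold wherever tested; Tbx5 falls below a filter of at least 30. In treated OMA1 KO against treated wild-type hearts 2 members were called with the length and GC correction, with that correction plus the replicate block, at a threshold of 0.01 and without treated wild-type replicate 2 (2 to 5 over the libraries left out). All genes called there numbered 1544 with the correction plus block, 959 at 0.01 and 1336 (without treated OMA1 KO replicate 2) to 2382 without a library. In treated against untreated OMA1 KO hearts they numbered 2693 at the filter of 30, which tests 4378 genes. In treated wild-type against untreated OMA1 KO hearts 3 members were called at 0.01 and 3 to 7 without a library, and all genes called were 1749 at the filter of 30 and 1642 at 0.01. edgeR, DESeq2 and voom on the recovered reads called 2429, 2035 and 2479 genes and 4 of 10 members each between the treated groups.

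Scaling to nuclear genes moved the median of all genes to 0.03, 0.08 and 0.06 in the 3 comparisons.

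The main fit did not pair samples by replicate number. Same-numbered libraries of the treated groups had deviations correlated at 0.183, -0.0439 and -0.14. Those of the knockout groups were correlated at 0.121, -0.0748 and -0.0937, and those of treated wild-type and untreated OMA1 KO hearts at 0.0725, 0.0378 and 0.109. As deviations from means of 3 libraries, these values cannot show whether the samples were paired. With the replicate block 5, 6 and 6 members and 2258, 4316 and 2755 genes were called in the 3 comparisons, Tbx5 being added between the treated groups (-0.33, limma adjusted p = 0.0419).

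Signs reversed only for differences that did not pass as deposited. Between the treated groups these were Nkx2-5 (-0.21) and Mef2c (0.05) with the length and GC correction, with or without block, and Mef2d with cyclic loess (0.06) or nuclear scaling (0.03). Between the knockout groups they were Gata6 (0.00224 with TMM, 0.01 with median-ratio scaling, edgeR, DESeq2 and voom, 0.09 with nuclear scaling), Nkx2-5 (0.01 with those 5, 0.09 with nuclear scaling) and Tbx20 (0.03 with cyclic loess or nuclear scaling, 0.00176 with the length and GC correction, with or without block). In treated wild-type against untreated OMA1 KO hearts they were Nkx2-5 (0.04 with the correction, with or without block) and Mef2c (0.04 with nuclear scaling). With each library left out in turn, signs also reversed for Mef2d between the treated groups (-0.06 to 0.02), Gata6 (-0.09 to 0.05) and Nkx2-5 (-0.03 to 0.01) between the knockout groups, and Mef2c in treated wild-type against untreated OMA1 KO hearts (-0.07 to 0.05). The cause was not tested. With the median coding length the order of levels was Mef2a, Tbx20 (place 2), Mef2c (3), Gata4 (4), Mef2d (5), Gata6 (6), Nkx2-5 (7), Tbx5 (8), Hand2 (9) and Myocd (10).

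With 3 libraries a group, Hand2 at 122 to 410 reads and Tbx5 at 138 to 273 are the least precisely counted members.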
